A study of Mus musculus with 6 samples.

Results

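Solute carriers are membrane proteins that move amino acids, sugars, ions, metals, nucleosides, vitamins and metabolites across the plasma membrane and the membranes of organelles. Genes of this kind were examined in mouse regulatory T cells (Treg) with and without the histone acetyltransferase p300. A gene was included when its 1 annotated symbol began with Slc and a digit and the mean of its brightest probe set over all 6 arrays was at least 5 on the log2 scale. The glucose carriers Slc2a1 and Slc2a3, the lactate carriers Slc16a1 and Slc16a3 and the iron exporter Slc40a1 were left out. This gave 126 genes from 39 families, out of 257 such Slc genes on the array and 12393 genes in all. The genes were thus chosen by their mean level over both groups, and not by the difference between them.

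RNA came from CD4+CD25+ cells of C57Bl/6 mice that had been separated magnetically. Of the 6 samples, 3 were of genotype fl-p300/Foxp3cre, in which a Cre recombinase driven from Foxp3 deletes the floxed p300 gene, and 3 were Foxp3cre controls without the floxed allele, titled WT. Both groups therefore carried Foxp3cre, and each sample was hybridised to 1 array. The labels give neither the age of the mice nor whether a sample is 1 animal or a pool. The p-values therefore reflect only how far these samples varied, part of which may be technical. Values are log2 readings, and a difference of 1 is a 2-fold change.

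The annotation names 0 probe sets for Ep300, the deleted gene, so it is not analysed here. The Treg factor Foxp3 read 9.63, 9.35 and 9.39 in controls. In the p300-deleted arrays it read 2.57, 3.04 and 3.15, under the first quartile of all probe sets on the same array (3.26, 3.29 and 3.28). The T cell gene Cd3e read 11.53, 11.63 and 11.46 in p300-deleted arrays, against 11.53, 11.40 and 11.21 in controls. Of 10 Treg markers, 7 lay above 0 in p300-deleted cells, with a median of 0.24. Foxp3 passed as lower, Izumo1r (folate receptor 4) passed as higher at 0.62 (adjusted p = 0.0459), and Il2ra, Ctla4, Gpr83 and Nrp1 were at 0.25, 0.30, 0.32 and 0.05. For Izumo1r, Il2ra, Ctla4 and Gpr83 every p300-deleted array lay above every control. Ikzf2 was at 0.60 (SE 0.37), with overlap. Below 0 beside Foxp3 were Il2rb at -0.30, with every p300-deleted array below every control, and Tnfrsf18 at -0.16, with overlap.

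T cells take up large neutral amino acids through a complex of the light chain Slc7a5 (LAT1) and the heavy chain Slc3a2 (CD98), and glutamine through Slc1a5 and members of the Slc38 family. This uptake feeds protein synthesis and the kinase complex mTORC1, on which Treg depend. The reduced folate carrier Slc19a1 supplies one-carbon metabolism, and carriers of the Slc25 family exchange nucleotides, metabolites and cofactors across the inner mitochondrial membrane. Zinc is loaded into organelles by the Slc30 family and released into the cytosol by the Slc39 family.

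The promoters of the member with the lowest p in each direction among members whose arrays did not overlap are given as the 250 bases before the most upstream start in the RefSeq promoter table (GRCm38.p6), 5′ to 3′ on the strand of the gene. Slc19a1 read lower in p300-deleted cells and Slc30a6 higher. Capitals mark the GC box (GGGCGG or its reverse complement CCGCCC), the CCAAT box (CCAAT or ATTGG), the E-box (CACGTG) and the cyclic AMP response element (TGACGTCA), searched on both strands. None of these motifs overlapped another here.
Slc19a1, chr10:77032489-77032738, plus strand: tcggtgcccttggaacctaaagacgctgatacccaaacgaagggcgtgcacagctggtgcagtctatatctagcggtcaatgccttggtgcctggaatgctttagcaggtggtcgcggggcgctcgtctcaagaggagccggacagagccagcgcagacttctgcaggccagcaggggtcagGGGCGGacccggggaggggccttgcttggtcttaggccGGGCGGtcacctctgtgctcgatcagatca
Slc30a6, chr17:74395358-74395607, plus strand: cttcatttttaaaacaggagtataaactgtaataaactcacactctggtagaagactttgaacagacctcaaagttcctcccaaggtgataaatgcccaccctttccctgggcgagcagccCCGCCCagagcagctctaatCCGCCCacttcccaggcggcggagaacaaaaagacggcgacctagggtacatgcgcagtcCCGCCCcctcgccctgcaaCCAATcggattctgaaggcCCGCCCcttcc
The Slc19a1 window held 2 GC boxes, with 62.0% G and C, and the Slc30a6 window held 4 GC boxes and 1 CCAAT box, with 54.8% G and C. Of the 126 members, 96 were in the promoter table, and 65.6% of these held a GC box, 38.5% a CCAAT box, 11.5% an E-box and 1.04% a cyclic AMP response element. Over the 7058 genes tested that were in the table, the shares were 59.9%, 36.3%, 8.49% and 2.52%. A match is a run of letters and not a measured binding site.

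No member passed the test between the groups. At an adjusted p under 0.05 in limma, 0 of the 126 were higher and 0 lower in p300-deleted cells, where 0.991% and 0.726% of all 8675 genes tested were. At an unadjusted p under 0.05, 8 members (6.35%) were higher and 14 (11.1%) lower, beside 8.21% and 9.89% of all genes tested, so these shares were near the background. Arrays of one group lay wholly above or below the other in 11 higher (8.73%) and 19 lower members (15.1%), beside 10.5% and 13.2% of all genes. The median difference over the members, p300-deleted minus control, was -0.03 with quartiles of -0.18 and 0.08, and over all genes tested it was -0.03 with quartiles of -0.16 and 0.12. Of the members, 97 lay within 0.25 of 0, 0 reached 1 in either direction, and the range was -0.50 to 0.63. In bulk RNA, a lower reading from fewer cells of a type and one from less RNA per cell cannot be told apart.

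The absence of calls does not show that the carriers were equal in both groups. The lowest p among members was 0.00272, for Slc19a1, while the largest p called over all genes was 0.000847. The median standard error (SE) of a member was 0.12. For 122 of the 126 members the 95% confidence interval of the difference stayed within 1 in size, that is, within a 2-fold change. The exceptions were Slc29a1, Slc4a8 and the peptide transporters Slc15a2 (0.19, interval -0.69 to 1.06) and Slc15a3 (-0.37, interval -1.01 to 0.27). With each array weighted by its agreement with the others, a fit that called 1019 of all genes (11.7%), 4 members passed as higher and 7 as lower, 8.73% of the members in all. Without control 3, when 236 genes passed (2.72%), the zinc transporter Slc30a4 and the mitochondrial carrier Slc25a30 passed as higher, 1.59% of the members. Both shares of the members were below those of all genes.

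**Figure D1:**
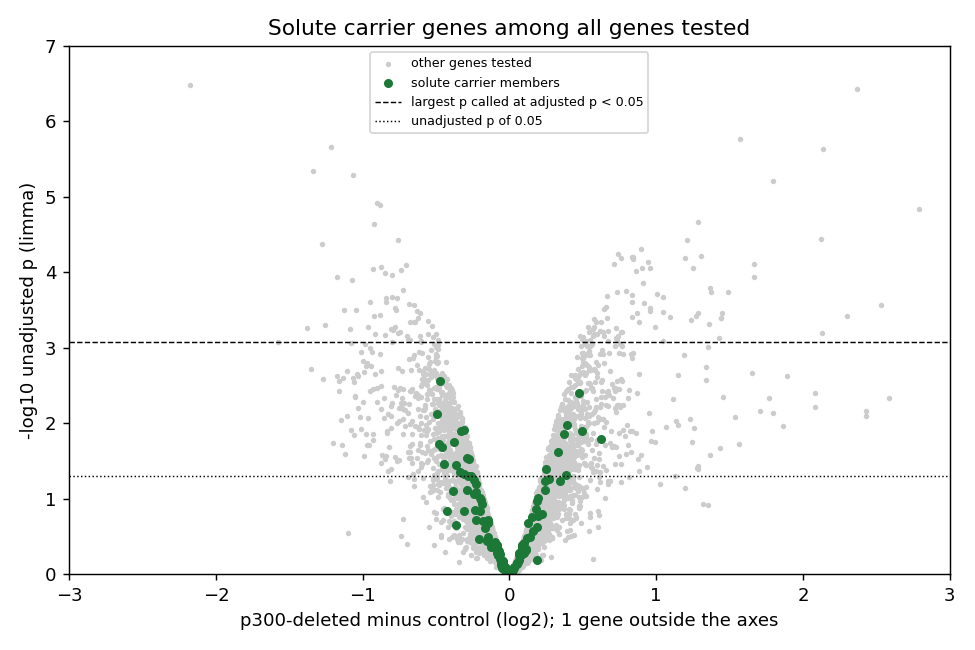
Difference between groups (log2, horizontal) against -log10 of the unadjusted p in limma (vertical) for the 8675 genes tested, with the 126 solute carrier members in green. All members lie below the dashed line at the largest p called, 0.000847, and between -0.50 and 0.63.

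Over all genes tested, 8.21% were higher and 9.89% lower with an unadjusted p under 0.05, the background for each class and list below. The members that carry amino acids and peptides take up building blocks of protein and the signals for growth. Of these 17 members, 0 passed the test, 1 was higher and 1 lower with an unadjusted p under 0.05, and the median difference was 0.02. These 2 genes were the 2 chains of the CD98 complex. Slc7a5, its light chain, read 7.41, 7.65 and 7.86 in p300-deleted arrays, against 8.20, 7.96 and 8.25 in controls. All p300-deleted arrays lay below all controls, with a difference of -0.50 (SE 0.14, interval -0.82 to -0.17, adjusted p = 0.124). The heavy chain Slc3a2 read 9.38, 9.30 and 9.23 in p300-deleted arrays, against 9.15, 8.99 and 9.02 in controls. Here every p300-deleted array lay above every control, at 0.25 (SE 0.10, interval 0.01 to 0.48, adjusted p = 0.253). Within each array the log2 ratio of Slc3a2 to Slc7a5 was 1.96, 1.65 and 1.36 in p300-deleted cells, against 0.95, 1.03 and 0.76 in controls, a shift of 0.74 between the groups. The exact permutation test, two-sided, gave p = 0.10, the smallest that 3 arrays against 3 allow, and p = 0.10 after adjustment over the 2 gene pairs compared. The pair was chosen after its values were seen. With all Slc3a2 readings higher and all Slc7a5 readings lower, the ratio had to separate the groups. The p-value was thus fixed in advance and adds no support.

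The glutamine transporter Slc1a5 read 9.19, 8.94 and 8.61 in p300-deleted arrays, against 8.72, 8.42 and 8.57 in controls. The groups overlapped, since p300-deleted 3 lay below control 1, and the difference was 0.35 (SE 0.16, adjusted p = 0.295), or 0.21 without p300-deleted 1. The neutral amino acid transporters Slc38a1 and Slc38a2 were at 0.02 (SE 0.15, interval -0.32 to 0.37) and -0.07 (SE 0.13, interval -0.36 to 0.23). Slc7a6, which also pairs with Slc3a2, was at 0.09 (SE 0.11), and a further probe set of it was at -0.07. Within this class the light chain Slc7a5 was thus the only member whose arrays all lay lower, and Slc3a2, Slc6a17 and Slc15a4 were the members whose arrays all lay higher.

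Genes that act beside these transporters were taken as lists. Of 24 tested genes of the ATF4 amino acid response, which induces transporters and synthesis enzymes when amino acids are short, 0 passed the test, 2 were higher and 4 lower with an unadjusted p under 0.05, and the median was -0.16. Its largest differences were those of the mitochondrial one-carbon enzymes Shmt2 (-0.59, SE 0.14, adjusted p = 0.0746) and Mthfd2 (-0.50, SE 0.13, adjusted p = 0.101). Of 19 tested genes of amino acid sensing upstream of mTORC1, 0 passed, with 1 higher and 1 lower with an unadjusted p under 0.05 and a median of -0.05. The leucine sensor family member Sesn1 was at -0.56 (SE 0.15, adjusted p = 0.101) and Seh1l, a subunit of the GATOR2 complex and of the nuclear pore, at 0.42 (SE 0.11, adjusted p = 0.107).

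Carriers of vitamins, choline and haem supply cofactors and lipid precursors. Of 8 members 0 passed, 0 were higher and 2 lower with an unadjusted p under 0.05, and the median was -0.03. The folate carrier Slc19a1 read 7.43, 7.59 and 7.72 in p300-deleted arrays, against 7.96, 8.11 and 8.09 in controls. The groups did not overlap, and the difference of -0.47 (SE 0.11, interval -0.73 to -0.21, adjusted p = 0.0824) was a 1.39-fold lower reading. A further probe set of Slc19a1 read 6.46, 6.40 and 6.86 against 7.30, 7.31 and 7.20, at -0.70 (SE 0.14, adjusted p = 0.0752 over all probe sets). The remaining probe set, dim, with a mean of 4.27, was at -0.01. The riboflavin transporter Slc52a3 read 5.02, 5.09 and 4.96 against 5.21, 5.35 and 5.63 in controls, at -0.38 (SE 0.13, adjusted p = 0.180), with no overlap. The choline transporter-like Slc44a2 read 10.59, 10.50 and 10.49 against 10.84, 10.51 and 10.33, with the p300-deleted arrays inside the range of the controls and a difference of -0.03 (SE 0.14).

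The Slc25 family of mitochondrial carriers was the largest group, with 28 members, of which 0 passed, 1 was higher and 5 lower with an unadjusted p under 0.05, and the arrays of 2 lay wholly higher and of 8 wholly lower. The median was -0.03. Over all genes tested, 8.21% were higher and 9.89% lower at that threshold, and 10.5% lay wholly higher and 13.2% wholly lower. The ADP/ATP carrier Slc25a5 (ANT2) read 11.98, 12.02 and 12.10 in p300-deleted arrays, against 12.21, 12.43 and 12.29 in controls. The readings did not overlap, at -0.28 (SE 0.11, interval -0.52 to -0.03, adjusted p = 0.220). All 8 probe sets of Slc25a5 had values below 0, from -0.62 to -0.27. Most of them have identifiers ending in _x_at, which can bind related transcripts. Slc25a4 (ANT1), the other ADP/ATP carrier among the members, was at 0.22 (SE 0.15, adjusted p = 0.467, with overlap), with values of 0.04 to 0.26 over its 4 probe sets. The log2 ratio of Slc25a4 to Slc25a5 was -2.04, -2.05 and -2.17 in p300-deleted arrays, against -2.78, -2.68 and -2.30 in controls, a shift of 0.50 (exact permutation test, two-sided, p = 0.10, the smallest possible). This pair too was chosen after its values were seen, so its p-value adds no support.

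The ornithine carrier Slc25a15 read 5.63, 5.95 and 6.14 against 6.23, 6.66 and 6.27 in controls, at -0.48 (SE 0.17, adjusted p = 0.184), and at -0.22 as a mean over its 2 probe sets. The pyrimidine nucleotide carrier Slc25a33 read 6.03, 5.99 and 5.83 against 6.34, 6.77 and 6.13, at -0.46 (SE 0.16, adjusted p = 0.192), and at -0.28 without control 2, its highest array. In both genes every p300-deleted array was below every control. The S-adenosylmethionine carrier Slc25a26 was at -0.33 (SE 0.11, adjusted p = 0.159) and the dicarboxylate carrier Slc25a10 at -0.31 (SE 0.13, adjusted p = 0.271), also without overlap. Slc25a26 reached the mean of 5 only through the controls (means of 4.873 in p300-deleted arrays and 5.202 in controls), so its difference is a description. Without it, 4 of 27 mitochondrial members were lower with an unadjusted p under 0.05 and 7 wholly lower. Slc25a10 was at -0.20 without control 3. In the other direction Slc25a30 read 7.35, 7.37 and 7.43 against 6.84, 6.59 and 7.23, at 0.50 (SE 0.16, adjusted p = 0.158). Its control 3 lay close to the p300-deleted arrays, and without control 3 the difference was 0.67 (adjusted p = 0.0340). Its further probe sets were at 0.21 and 0.47 (means of 6.30 and 5.89) and, dim, at -0.14 and -0.25 (means of 3.23 and 2.42). The mean over its probe sets gave 0.16 (adjusted p = 0.598), and the 18S covariate 0.30.

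Metal ion transporters set the zinc, magnesium, copper and iron content of the cytosol and organelles. Of 20 members 0 passed, 3 were higher and 0 lower with an unadjusted p under 0.05, and the median was -0.03. The arrays of 3 lay wholly higher and of 3 wholly lower, where 10.5% and 13.2% of all genes tested did. The zinc transporter Slc30a6 (ZnT6), which forms a complex with Slc30a5 in the secretory pathway, read 7.49, 7.38 and 7.17 in p300-deleted arrays, against 7.002, 6.79 and 6.82 in controls. The arrays did not overlap, and the difference was 0.47 (SE 0.12, interval 0.20 to 0.75, adjusted p = 0.0937), a 1.39-fold higher reading. Its partner Slc30a5 was at 0.06 (SE 0.10). Slc30a4 (ZnT4) read 6.59, 6.79 and 6.81 against 6.17, 6.14 and 6.73, so that control 3 lay among the p300-deleted arrays. Its difference was 0.38 (SE 0.17, adjusted p = 0.274), and 0.57 (adjusted p = 0.0473) without control 3. The magnesium transporter Slc41a1 read 7.95, 7.98 and 8.12 against 7.62, 7.48 and 7.83, at 0.37 (SE 0.12, adjusted p = 0.165), with no overlap. Slc39a7 (ZIP7), which releases zinc from the endoplasmic reticulum, was at -0.03 (SE 0.11). Another zinc importer, Slc39a6, was at -0.19 (SE 0.11) by its brightest probe set and at -0.72 (SE 0.22) by a second one with a mean of 5.45. The wholly lower members were Slc39a6, Slc30a3 (-0.23, SE 0.11) and Slc39a4 (-0.24, SE 0.11).

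Carriers of the endoplasmic reticulum (ER) and Golgi, most of which import nucleotide sugars for glycosylation, had 15 members, of which 0 passed, 0 were higher and 3 lower with an unadjusted p under 0.05. Their median was -0.06, beside -0.03 over all genes tested, and 11 of 15 lay below 0, beside 73 of all 126 members. The GDP-fucose transporter Slc35c1 read 7.47, 7.54 and 7.59 in p300-deleted arrays, against 7.88, 7.85 and 7.79 in controls, with no overlap, at -0.31 (SE 0.10, interval -0.53 to -0.09, adjusted p = 0.156). Slc35c2, of the same subfamily, read 6.87, 6.82 and 6.87 against 7.32, 7.07 and 7.05, at -0.29 (SE 0.11, adjusted p = 0.218), and a further probe set was at -0.44. Slc35d1, which carries UDP-linked sugars into the ER, was at -0.37 (SE 0.15, adjusted p = 0.241), with p300-deleted 3 above control 3. Slc35b3, which imports the sulfate donor of the Golgi, was at 0.24 (SE 0.12, adjusted p = 0.335), or 0.15 without control 3. The CMP-sialic acid transporter Slc35a1 was at 0.19 (SE 0.10) by its brightest probe set and 0.64 (SE 0.19) by another.

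Transporters of inorganic ions regulate cell volume and pH. Of 13 members 0 passed, 1 was higher and 0 lower with an unadjusted p under 0.05, and the median was -0.02. The sodium, potassium and chloride cotransporter Slc12a2 (NKCC1), which takes part in cell volume control, read 8.18, 8.15 and 8.15 against 7.87, 7.54 and 7.89 in controls. The p300-deleted arrays lay close together and above all controls, at 0.40 (SE 0.12, interval 0.12 to 0.67, adjusted p = 0.143). Its further probe sets, with means of 5.08 and 4.49, were at 0.28 and 0.45. The phosphate transporter Slc20a1 was at 0.01 (SE 0.17), with its lowest and highest arrays both among the controls (8.68 and 9.38). Slc4a8, a sodium-driven bicarbonate transporter, was at -0.43 (SE 0.27, adjusted p = 0.452). This value rested on control 3, which read 6.93 while the other arrays read 5.72 to 5.87, and it was -0.06 without that array.

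Of 11 members that carry carboxylates, lipids and organic ions, 0 passed, 1 was higher and 3 lower with an unadjusted p under 0.05, and the median was -0.03. The monocarboxylate transporter family member Slc16a6 read 7.35, 6.66 and 6.79 against 7.51, 7.29 and 7.33, at -0.44 (SE 0.18, adjusted p = 0.238), with p300-deleted 1 inside the controls. The urea transporter Slc14a1 read 7.58, 7.19 and 7.58 against 7.89, 7.87 and 7.60, at -0.34 (SE 0.14, adjusted p = 0.263), with no overlap but p300-deleted 3 close to control 3. Its other probe set, with a mean of 6.91, was at -0.13, and the brightest gave -0.21 without p300-deleted 2. The carnitine transporter Slc22a5 read 7.84, 8.01 and 8.09 against 8.43, 8.14 and 8.20, at -0.28 (SE 0.12, adjusted p = 0.275), and a dimmer probe set with a mean of 4.49 was at 0.31, so that their mean was at 0.014. Slc22a17, a receptor for lipocalin-2, read 6.17, 6.24 and 6.34 against 6.10, 5.91 and 5.74, at 0.33 (SE 0.12, adjusted p = 0.205), with no overlap.

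Among the 3 nucleoside and 5 sugar transporters 0 passed. The largest difference of any member in either direction was that of Slc29a1 (ENT1), an equilibrative nucleoside transporter that moves adenosine across the plasma membrane. It read 7.77, 7.63 and 6.98 in p300-deleted arrays, against 6.92, 6.59 and 7.002 in controls. Only p300-deleted 1 and 2 lay above the controls, p300-deleted 3 lay within them, and the difference was 0.63 (SE 0.21, interval 0.15 to 1.10, adjusted p = 0.175). The lysosomal nucleoside transporter Slc29a3 and the nucleobase transporter Slc43a3 were at -0.08 (SE 0.11) and -0.01 (SE 0.16). Of the sugar transporters 0 had an unadjusted p under 0.05, with a range of -0.10 to 0.12. Slc50a1, a glucose transporter of the SWEET type, was at 0.12 (SE 0.12, interval -0.15 to 0.38).

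The members placed in no substrate class were Slc35e1, Slc35e4 and Slc35f6, with differences of -0.18, -0.07 and 0.16. The other members of their family, Slc35, were placed with the ER and Golgi carriers. A further 3 members carry an Slc symbol and are not transporters. The scaffold proteins Slc9a3r1 and Slc9a3r2, which bind a sodium/proton exchanger, were at -0.09 (SE 0.10) and -0.11 (SE 0.12), and Slc4a1ap was at -0.08 (SE 0.10). Of 24 tested genes listed with the solute carrier superfamily under other symbols, 0 passed, with 1 higher and 5 lower with an unadjusted p under 0.05 and a median of -0.06. The largest differences among them were -0.51 (SE 0.14, adjusted p = 0.101) for Mtfp1, a mitochondrial inner membrane protein placed on this list, and -0.44 (SE 0.11, adjusted p = 0.0817) for Mtch1, a mitochondrial carrier homologue.

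**Figure D2:**
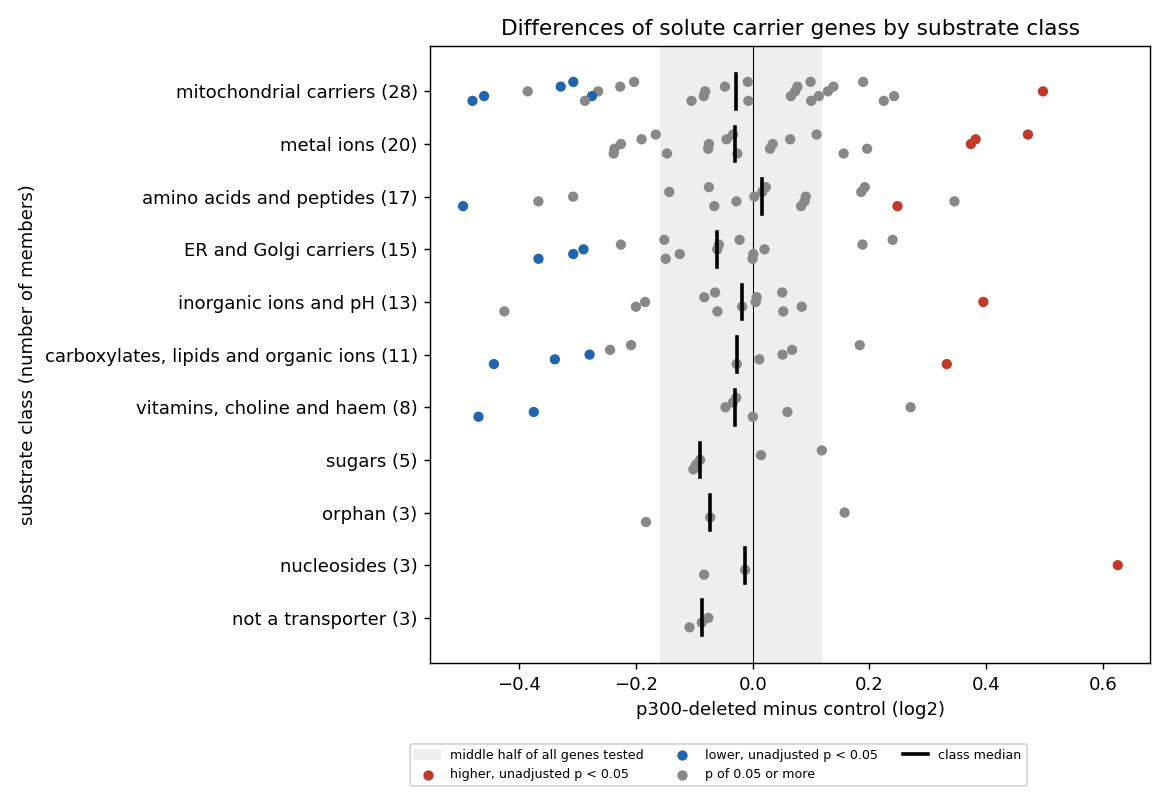
Difference between groups (p300-deleted minus control, log2) for each of the 126 members, 1 point per gene, by substrate class, with class medians as black bars and the interquartile range of all genes tested as a grey band from -0.16 to 0.12. All class medians lie inside the band, and coloured points past an unadjusted p of 0.05 occur on both sides.

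**Figure D3:**
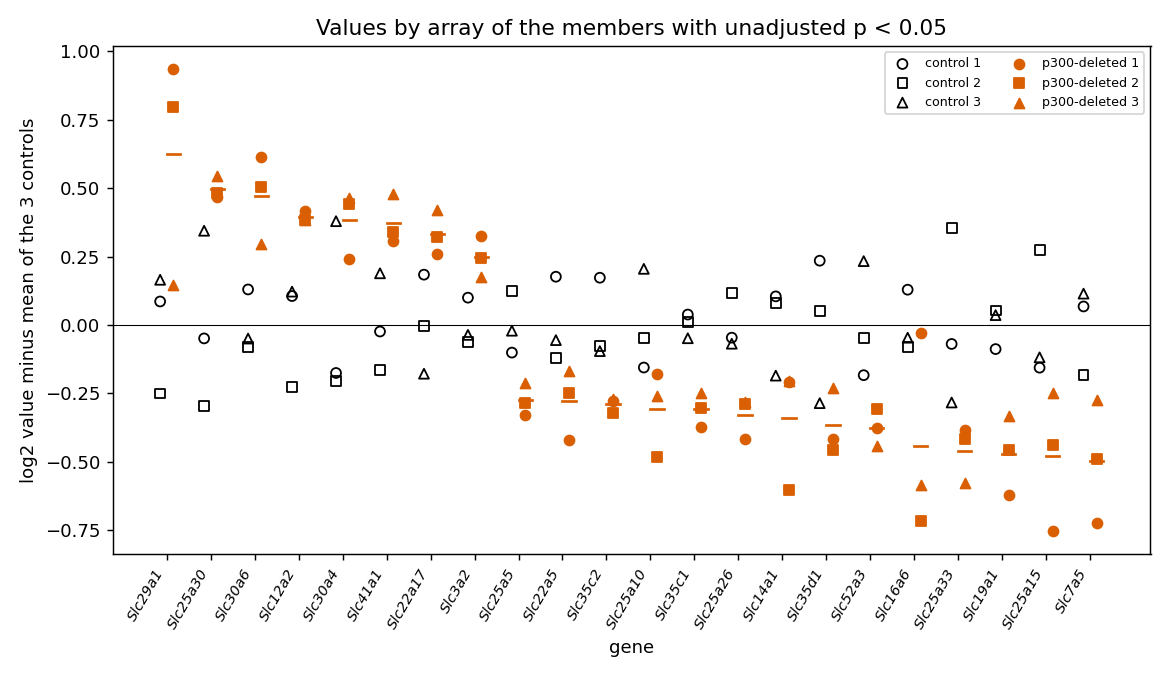
Log2 value of each array minus the mean of the 3 controls for the 22 members with an unadjusted p under 0.05; open symbols are controls, filled symbols p300-deleted arrays, marker shape is the replicate number and the short bar is the p300-deleted mean. The order runs from Slc29a1 at 0.63 to Slc7a5 at -0.50, and p300-deleted 3 of Slc29a1 sits among its controls.

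Probe sets for the same gene mostly gave the same sign. Of the 126 members 60 had more than 1 probe set, and 57 further probe sets of 36 genes had a mean of at least 5. Of these 57, 48 had the sign of the brightest probe set and 9 had the other sign. In 0 of the 9 were both values past 0.2 in size. Of all 229 probe sets of the members, 0 had an adjusted p under 0.05 over all probe sets, and the lowest was that of the further Slc19a1 probe set (0.0752). For 34 members the brightest probe set had an identifier ending in _s_at, _x_at or _a_at.

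**Figure D4:**
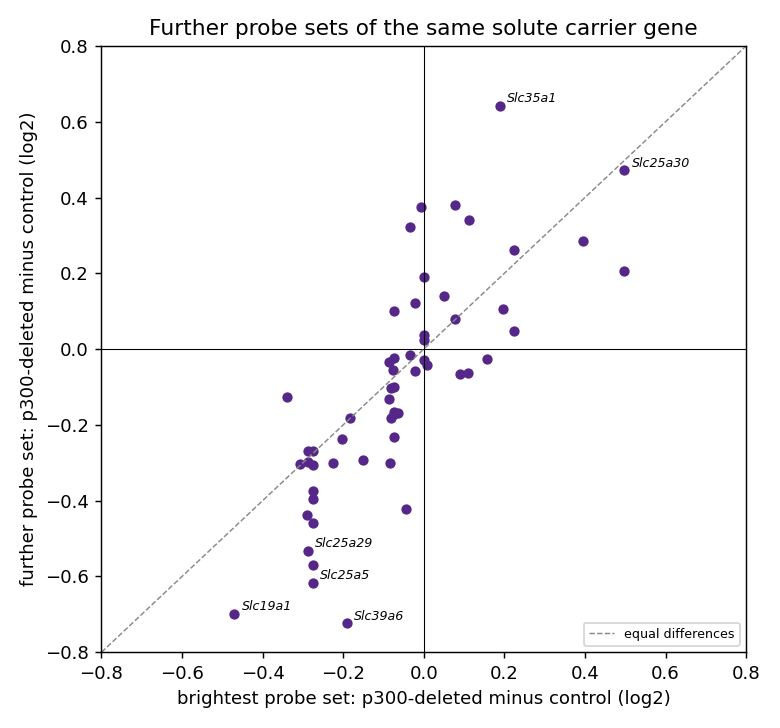
Difference of each further probe set with a mean of at least 5 (vertical, log2) against that of the brightest probe set of the same gene (horizontal, log2), 57 points from 36 genes; the dashed line marks equal differences. Of the points, 48 lie in the quadrants of equal sign, and Slc39a6 (-0.72 against -0.19) and Slc35a1 (0.64 against 0.19) lie furthest from that line.

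At the limit of the choice, Slc7a10, Slc22a12 and Slc25a26 had means of 5.003, 5.01 and 5.04, and Slc7a7, Slc14a2 and Slc25a24 had means of 4.88, 4.87 and 4.80. Their differences were -0.03, 0.01 and -0.33 inside the limit and 0.00, -0.15 and 0.99 outside it. In 4 members the mean of the p300-deleted arrays was below 5, and in 0 members was that of the controls. A further 34 Slc genes with a mean below 5 were bright enough to be tested, and 0 of them passed, with 4 higher and 3 lower with an unadjusted p under 0.05. Among these, the sodium/calcium exchanger family member Slc24a3 was at -0.99 (SE 0.23, adjusted p = 0.0755).

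Cell cycle genes and several marker lists separated the groups further than the carriers did. The B cell, dendritic cell, erythroid and amino acid sensing lists overlapped between the groups, as did the list of solute carrier superfamily genes under other symbols. List values by array are means over genes, while those of the members are medians. Set against the mean of all arrays, the members had medians of -0.02, -0.04 and -0.02 in p300-deleted samples against 0.05, 0.01 and -0.01 in controls, and p300-deleted 3 lay close to control 3. Of 26 tested cell cycle genes 6 fell (0.726% of all genes tested did), 0 rose (0.991% of all) and 25 were below 0, with a median of -0.89. Relative to all arrays, the 29 of these genes on the array averaged -0.16, -0.58 and -0.49 in p300-deleted samples, against 0.28, 0.04 and 0.91 in controls. Its part in the lower readings of Slc7a5, Slc19a1 and Slc25a5 was not tested.

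Markers of other cells also differed. Over all genes tested, 0.991% rose and 0.726% fell at an adjusted p under 0.05 in limma. Of 9 tested plasma cell markers 5 rose, with means of 0.69, 0.22 and 0.42 relative to all arrays in p300-deleted samples, against -0.54, -0.40 and -0.39 in controls. Of 9 tested mast cell and basophil markers 6 rose, with means of 0.84, 0.21 and 0.43 against -0.46, -0.41 and -0.61. Of 14 tested myeloid markers 0 passed but all 14 lay above 0, with 8 at an unadjusted p under 0.05 and means of 1.36, 0.01 and 0.22 against -0.53, -0.83 and -0.22. Of 6 tested NK cell markers 1 rose, and of 6 tested B cell markers 1 fell. None of the CD4 T cell (6 tested), CD8 T cell (2), dendritic cell (6) and erythroid (2) markers passed in limma, with 2, 1, 1 and 0 higher and 0 lower with an unadjusted p under 0.05. The CD4 T cell markers averaged 0.11, 0.16 and 0.06 relative to all arrays in p300-deleted samples, against -0.01, -0.12 and -0.19 in controls. In the plasma cell, mast cell and myeloid lists p300-deleted 1 read highest. Of the 8 members higher at an unadjusted p under 0.05, 4 (Slc3a2, Slc12a2, Slc29a1 and Slc30a6) read highest there, and 4 (Slc22a17, Slc25a30, Slc30a4 and Slc41a1) in p300-deleted 3. Of the 14 lower members, 7 read lowest in p300-deleted 1, 5 in p300-deleted 2 and 2 in p300-deleted 3. No share over all genes is given for these counts. The part of other cell types in the readings of the carriers was not tested. RNA quality was read from the Gapdh control, whose 3′ value exceeded its 5′ value by 0.09, 0.14 and 0.06 in p300-deleted samples, against 0.23, 0.59 and 0.21 in controls. The mean of the 18S control probe sets was 7.74, 9.47 and 7.91 in p300-deleted samples, against 5.68, 6.03 and 8.69 in controls. Control 3 thus stood apart from the other controls, and p300-deleted 2 read highest of all arrays. All p300-deleted samples read above control 1 and control 2. The 18S mean was thus partly aligned with the group, and a fit with it can also remove part of the group difference. With the 18S mean as a covariate 15 genes passed in place of 149, and 0 members did. Of the 22 members with an unadjusted p under 0.05, 18S made 4 differences smaller by over 1.5 times (Slc14a1, Slc25a30, Slc30a4 and Slc35d1) and turned 0.

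**Figure D5:**
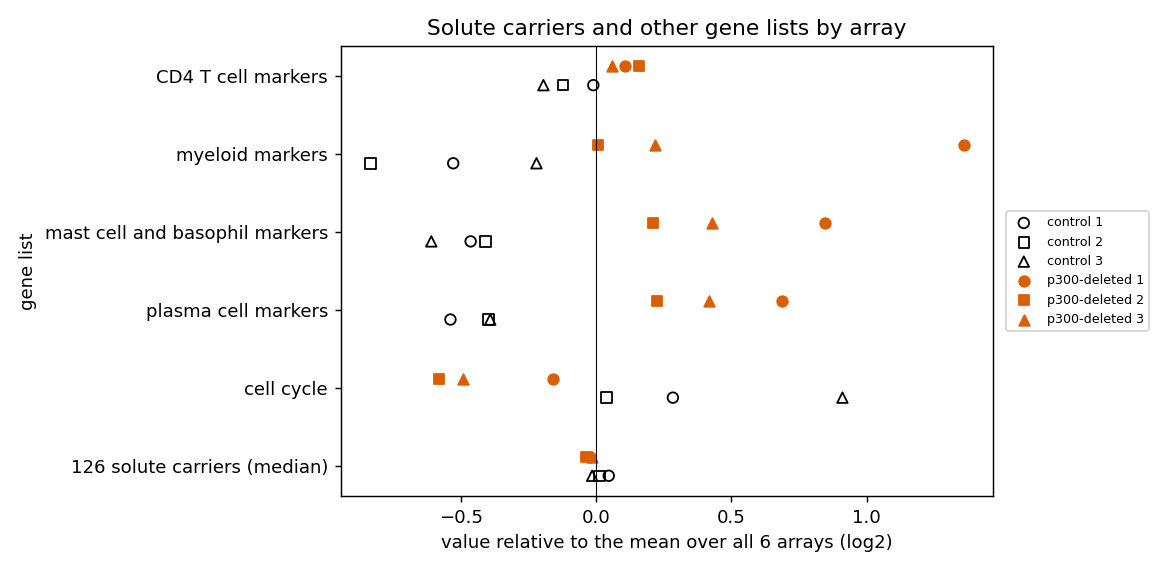
Values relative to the mean over all 6 arrays (log2, horizontal) for the median of the 126 solute carriers and the means of 5 other gene lists, 1 symbol per array. The solute carriers lie between -0.04 and 0.05 in every array, with p300-deleted 3 next to control 3. All 5 other lists separate the groups. The cell cycle list lies lower in p300-deleted arrays, and the plasma cell, mast cell and basophil, myeloid and CD4 T cell lists lie higher.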

How the data were processed

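Each array's values were deposited as log2 signals per probe set from RMA by the authors, per the submitters' processing notes, with no RMA version found. RMA gives all arrays 1 distribution, which hides a shift in total RNA. Array medians were 5.38 to 5.46, and 3 arrays per group limit the precision. Of 22690 probe sets, 20393 had 1 gene symbol, 691 several and 1606 none, and 20364 were matched by gene ID to RefSeq (GRCm38.p6), with 0 symbols updated. No gene is named from a probe set with several symbols. The brightest probe set stood for each of 12393 genes. Leaving out the dimmest 30% (means below 3.907) left 8675 genes, all 126 members included. The 2 groups were compared by a linear model in limma 3.58.1 (R 4.3.3) with moderated variances and a two-sided test, and p-values were adjusted by Benjamini-Hochberg over all these genes. The fit was tested on simulated data.

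Substrate classes were assigned by family, with single genes reassigned. Genes were named by rule: members past the threshold, the 10 largest differences in each direction among members at an unadjusted p under 0.05 without overlap, the highest mean and largest difference of each class, 6 amino acid transporters, the neighbours of the limit and, from each transporter-related list, the 2 largest differences. Other named genes (Slc30a3, Slc30a4, Slc30a5, Slc25a4, Slc39a4, Slc39a6, Slc35a1, Slc15a2, Slc15a3, Slc15a4, Slc6a17, Slc43a3, Slc24a3, Slc4a1ap, Slc35e4 and Slc35f6) were chosen after their values were seen. The members and lists were chosen with earlier results of these data known. Alternatives covered the dim limit, further normalization, means over probe sets, the variance model, weighted arrays, a block for the replicate number, an 18S covariate, other limits for members and leaving out each array.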

Additional observations from a re-analysis of the deposited data

How the results depend on the processing

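The counts of members with an adjusted p under 0.05 (0 higher, 0 lower) were the same under other dim limits, further normalization, means over probe sets, another variance model, an 18S covariate, other member limits and the replicate block. With array weights, of 0.37 to 2.41, 4 members were higher (Slc25a30, Slc30a4, Slc30a6 and Slc41a1) and 7 lower (Slc7a5, Slc19a1, Slc25a33, Slc35d1, Slc22a5, Slc35c1 and Slc35c2), 24 were lower at an unadjusted p under 0.05 (19.0%, against 17.2% of all genes) and the median was -0.067. Control 2 and control 3 had the lowest weights, 0.37 and 0.405. At an unadjusted p under 0.05, 7 members (5.56%) were lower with the 18S covariate, against 6.27% of all genes, and 9 (7.14%) with the replicate block, against 8.62%. Same-numbered arrays correlated at -0.07, 0.12 and -0.12 in their deviations from the group means. With 3 arrays per group, this cannot show whether the replicate numbers pair the samples.

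Leaving out 1 array at a time gave 0 to 2 members higher and 0 lower at an adjusted p under 0.05, with 2 only without control 3 (Slc30a4 and Slc25a30). At an unadjusted p under 0.05 it gave 5 to 8 higher and 7 to 18 lower, with 7 lower (5.56%, against 5.29% of all genes) without p300-deleted 2 and 18 lower (14.3%, against 14%) without control 3. The members' counts of lower genes thus moved with those of all genes. The median ranged from -0.05 to -0.03. The cause of these shifts was not tested. Among the 22 members at an unadjusted p under 0.05, array weights moved Slc22a17 to 0.21 and Slc52a3 to -0.25.

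Of 35 named members, 28 kept their sign throughout. The other 7 did not, of which Slc22a5 (-0.28) and Slc9a3r2 (-0.11) were the furthest from 0. Slc20a1 was at -0.016 with centred arrays, -0.0175 as a mean over probe sets, -0.21 with array weights and -0.17 to 0.18 when 1 array was left out. Slc38a1 was at -2.257e-05 with centred arrays, -0.025 with array weights, -0.039 with the 18S covariate and -0.10 to 0.12 when 1 array was left out. Slc44a2 was at 0.091 as a mean over probe sets, 0.13 with the 18S covariate and -0.15 to 0.11 when 1 array was left out. Slc39a7 was at 0.069 with the 18S covariate and -0.083 to 0.047 when 1 array was left out. Slc38a2 was at -0.18 to 0.028 when 1 array was left out. Slc22a5 was at 0.014 as a mean over probe sets and Slc9a3r2 at 0.0070 with array weights.

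Limits: each array gives 1 reading per gene, members near the background of the array can understate differences, and changes in protein or transport were not measured.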
